A study of Mus musculus with 25 samples.

Results

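The 7 genes described here encode neurotrophic ligands, grouped here as trophic factors of repair Schwann cells: Gdnf, Artn, Bdnf, Ntf3, Lif, Clcf1 and Cntf. They were taken by name from the 56956 genes of the count table, by a rule that uses no measured level, although earlier results of these data were known when the list was made. Each symbol matched 1 Ensembl gene.

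Whole sciatic nerves of mice that overexpress human PMP22, the myelin gene whose duplication causes Charcot-Marie-Tooth disease type 1A (CMT1A), were compared with nerves of control mice by RNA sequencing, with 5 ages sampled between 3 and 12 weeks (3, 5, 7, 9, 12). C3 mice (B6.Cg-Tg(PMP22)C3Fbas/J, on C57BL/6J) carried 5 additional copies of human PMP22 and were compared with C57BL/6J mice (WT-C3), and C22 mice (Tg(PMP22)C22Clh, on FVB/NRJ) carried 10 additional copies and were compared with FVB/NRJ mice (WT-C22). The fifth group, C3-PMP22 c-JunP0Cre (C3-cJunKO), carried the C3 transgene as well and lacked c-Jun in Schwann cells through a Cre driven by the P0 promoter. The labels name no treatment, and they give no background strain for C3-cJunKO. The models differ in strain as well as copy number, and the parts of these cannot be told apart. Each of the 25 libraries came from the pooled nerves of 4 to 5 males and females, with 1 pool per group and age. The n of 5 per group is therefore made of 5 ages, and any SD or standard error (SE) given below mixes age effects with the variation between pools.

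After nerve injury, Schwann cells leave the myelinating state and become repair cells that feed axons and neurons with some of these ligands. GDNF family ligands (Gdnf, Artn) signal through a GFRα co-receptor and the kinase RET, the neurotrophins (Bdnf, Ntf3) through Trk kinases and the receptor p75, and the ligands of the IL-6 family (Lif, Clcf1, Cntf) through gp130 and the LIF receptor. c-Jun, a subunit of the transcription factor AP-1, is known as a regulator of the repair state and is needed for Gdnf and Artn expression in Schwann cells of injured nerve.

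The libraries held between 2140142 and 49072746 counts on genes. The C3 library of 9 weeks was the shallowest, and 3 counts, taken as the limit of detection, equal 1.4 CPM (counts scaled to library depth) there and between 0.0602 and 0.343 CPM in the other libraries. Jun averaged 58.5 ± 8.45 CPM in WT-C3, 110 ± 11.6 in C3, 29.2 ± 2.44 in C3-cJunKO, 58.7 ± 14.8 in WT-C22 and 158 ± 18.6 in C22 (SD, n = 5). It was thus lower in C3-cJunKO than in C3 (edgeR adjusted p = 7.29e-07) but still at least 26.3 CPM in each of these whole nerve libraries. Human PMP22 averaged 12600, 11400 and 11800 CPM in C3, C3-cJunKO and C22, and at most 6.4 CPM in any control library. Of 8 tested markers of repair or immature Schwann cells, 7 were higher in C3 than in WT-C3 and 5 were higher and 2 lower in C22 than in WT-C22. Lower in C22 were Gap43 and Shh, the latter at 0 counts in all C22 libraries. Among all genes tested, 23.9% passed an adjusted p of 0.05 in C3 and 42.4% in C22, in either direction. Summed skeletal muscle markers ranged from 7.27 to 9340 CPM over the libraries, and their part in the results below was not tested.

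Per exon length, Clcf1 and Lif had the highest levels of the 7 ligands and Bdnf the lowest. The level of Cntf is uncertain, since its coding bases also belong to another gene on the same strand, as given below. Group means ranged from 1.14 to 5.11 CPM per kb for Clcf1, from 0.386 to 2.18 for Lif, from 0.528 to 0.854 for Ntf3, from 0.0692 to 0.723 for Gdnf, from 0.115 to 0.189 for Artn, from 0.0394 to 0.0614 for Cntf and from 0.0198 to 0.0295 for Bdnf. The order differed between groups. In C22, Ntf3 (0.528 ± 0.116 CPM per kb) stood above Lif (0.386 ± 0.0936), although their libraries overlapped. Lif stood above Clcf1 in WT-C3 (2.18 against 1.26) and WT-C22 (2.18 against 1.14), and below it in the other groups. Gdnf stood above Ntf3 in C3 (0.723 against 0.667), with overlapping libraries. Artn stood above Gdnf in WT-C3 (0.117 against 0.0967) and WT-C22 (0.116 against 0.0692), also with overlap. Only Lif and Clcf1 passed the expression filter of the study (log2 CPM over 1 in 7 or more libraries). The other 5 ligands were therefore tested in a second fit over all 26289 genes with at least 10 counts in total.

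**Figure D1:**
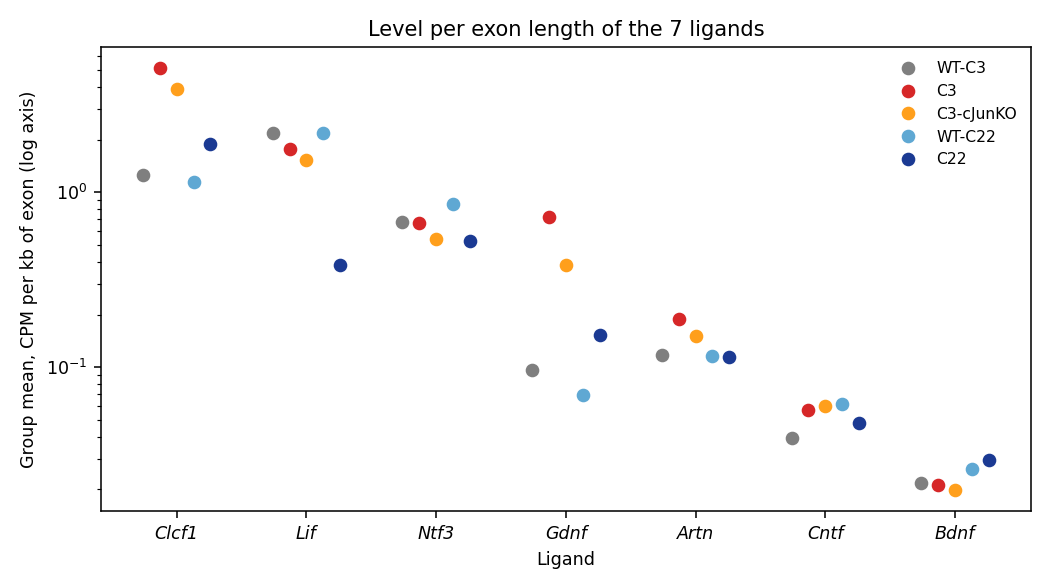
Mean level of each ligand in CPM per kb of merged exon (log axis), with 1 point per group (mean of 5 libraries). Clcf1 and Lif lie highest, except in C22, where Ntf3 lies above Lif, and Bdnf and Cntf lie lowest. The Gdnf and Clcf1 points of C3 and C3-cJunKO lie above those of the other groups. The Cntf level is uncertain, since its coding bases also belong to another gene.

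In C3 compared to WT-C3, Gdnf and Clcf1 were higher and no ligand was lower, so that 2 of 7 passed an adjusted p of 0.05 in edgeR's quasi-likelihood test. The background was 23.9% of the 13993 genes in the filtered fit and 12% of the genes in the second fit. The same 2 ligands had no overlap between the 5 C3 and the 5 WT-C3 libraries, against 17.5% and 10.3% of genes. In C22 compared to WT-C22, Gdnf and Clcf1 were higher and Lif and Ntf3 lower, 4 of 7 against 42.4% and 24.1% of genes, and Gdnf and Lif did not overlap, against 30.6% and 19.4%. These counts lie not far from the background, so they say little about the ligands as a group, and the changes are given below for each ligand. In whole nerve RNA, a change in the number of cells of a type and a change in RNA per cell cannot be told apart.

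**Figure D2:**
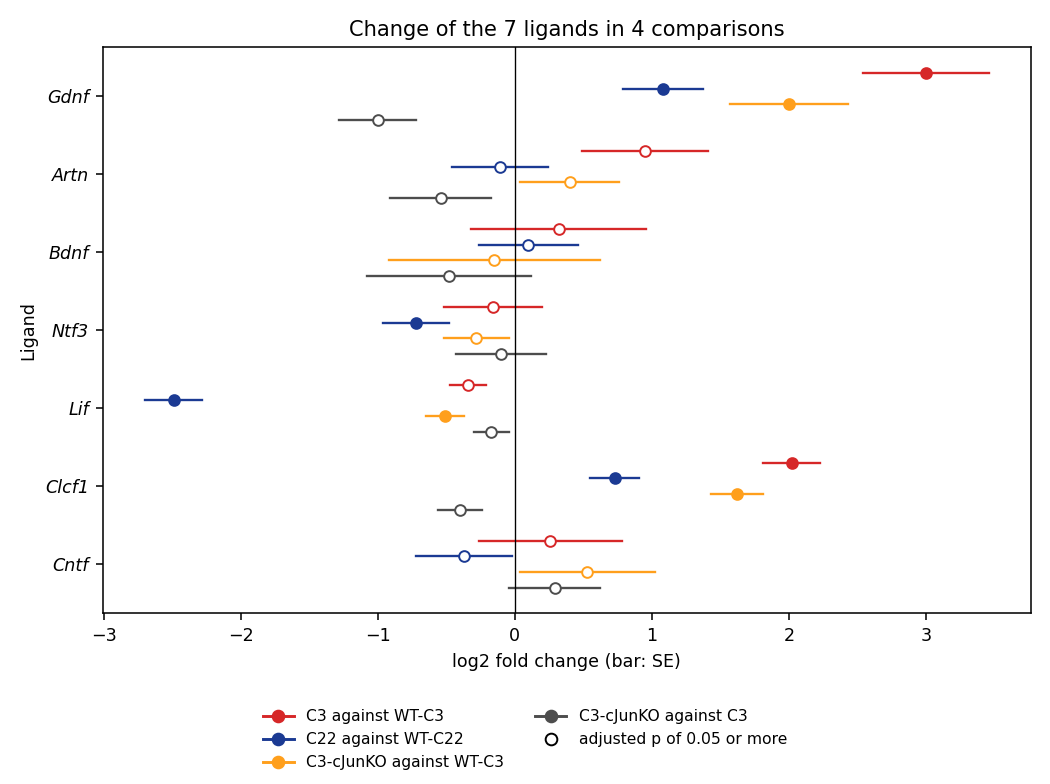
Log2 fold change with SE of each ligand in 4 comparisons of 5 against 5 libraries, where filled points have an adjusted p under 0.05. Gdnf and Clcf1 lie to the right in C3, C22 and C3-cJunKO against their controls, and Lif lies far to the left in C22 (-2.49) and near -0.34 in C3.

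Gdnf (ENSMUSG00000022144, chromosome 15 from 7840327 to 7867060, plus strand, GRCm39) encodes glial cell line-derived neurotrophic factor, a survival factor for motor and sensory neurons. The 5 WT-C3 libraries, from 3 to 12 weeks, had 0.312, 0, 0.457, 0.397 and 0.611 CPM, on 0 to 10 counts. The C3 libraries had 2.3, 3.25, 4.28, 1.4 and 2.06 CPM, on 77, 84, 213, 3 and 50 counts. All C3 values lay above all WT-C3 values, with the highest at 7 weeks, and the 9 week value rests on a count at the limit of detection. The log2 fold change in C3 was 3.00 ± 0.46 (SE), which is 7.99-fold (adjusted p = 0.000745), and 3.07 (adjusted p = 0.000686) without the 9 week library. Leaving out each library in turn gave 2.68 to 3.34. An exact two-sided permutation test of the CPM gave p = 0.00794, the smallest p possible with 5 against 5 libraries.

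Gdnf was also higher in C22, at a lower level. The WT-C22 libraries had 0.231, 0.212, 0.206, 0.273 and 0.35 CPM (2 to 14 counts). The C22 libraries had 0.681, 0.486, 0.43, 0.685 and 0.533 CPM (10 to 20 counts). The groups did not overlap, and the 5 week WT-C22 library was below the limit of detection. C22 exceeded WT-C22 2.11-fold, a log2 fold change of 1.08 ± 0.29 (adjusted p = 0.0143; exact permutation p = 0.00794). The change in C22 minus that in C3 was -1.90 ± 0.58 on the log2 scale, a difference that did not pass the threshold (adjusted p = 0.0572), while 5.56% of genes in this fit did. It passed with DESeq2 (0.0147), with all 25 libraries in 1 fit (0.0366), with filterByExpr (0.0436), and without the C3 library of 9 weeks (0.0365) or of 12 weeks (0.0472) or the WT-C3 library of 12 weeks (0.0293). Where it did not pass, the adjusted p reached 0.126 with 1 library left out and 0.0766 under other settings.

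In C3-cJunKO, Gdnf lay between C3 and WT-C3. The 5 libraries had 1.16, 1.79, 1.46, 1.71 and 0.976 CPM, on 22 to 59 counts. They were above all WT-C3 libraries (log2 fold change 2.00 ± 0.43, 4-fold, adjusted p = 0.00538), and below the C3 library of the same age at 3, 5, 7 and 12 weeks. The exception was 9 weeks, where the C3 value rests on 3 counts. Compared to C3, the log2 fold change was -1.0 ± 0.28 (unadjusted p = 0.00291, adjusted p = 0.238; exact two-sided permutation p = 0.0397). Age as a block pairs the libraries of each age, whose deviations from the group means correlated above 0.1 here. At 5 and 7 weeks, the C3-cJunKO library nevertheless correlated more with a C3 library of another age. With this block, Gdnf was lower in C3-cJunKO at the same log2 fold change of -1.0 (adjusted p = 0.0343). That call was held without the C3 library of 9 weeks (-1.13, adjusted p = 0.00936) and of 3 weeks (0.0434), and without the C3-cJunKO library of 9 weeks (0.00959) and of 3 weeks (0.0343). It was lost without the C3 library of 5 weeks (0.0882), 7 weeks (0.304) or 12 weeks (0.123), and without the C3-cJunKO library of 5 weeks (0.0772), 7 weeks (0.253) or 12 weeks (0.117).

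From high to low, Gdnf means were 2.66 ± 1.12 CPM in C3, 1.42 ± 0.348 in C3-cJunKO, 0.563 ± 0.116 in C22, 0.356 ± 0.227 in WT-C3 and 0.255 ± 0.0597 in WT-C22 (SD, n = 5). C3 and C3-cJunKO overlapped, as did C22 and WT-C3, and WT-C3 and WT-C22, while C3-cJunKO and C22 did not. WT-C22 and WT-C3 did not differ beyond their spread (log2 fold change -0.40 ± 0.53, adjusted p = 0.688).

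**Figure D3:**
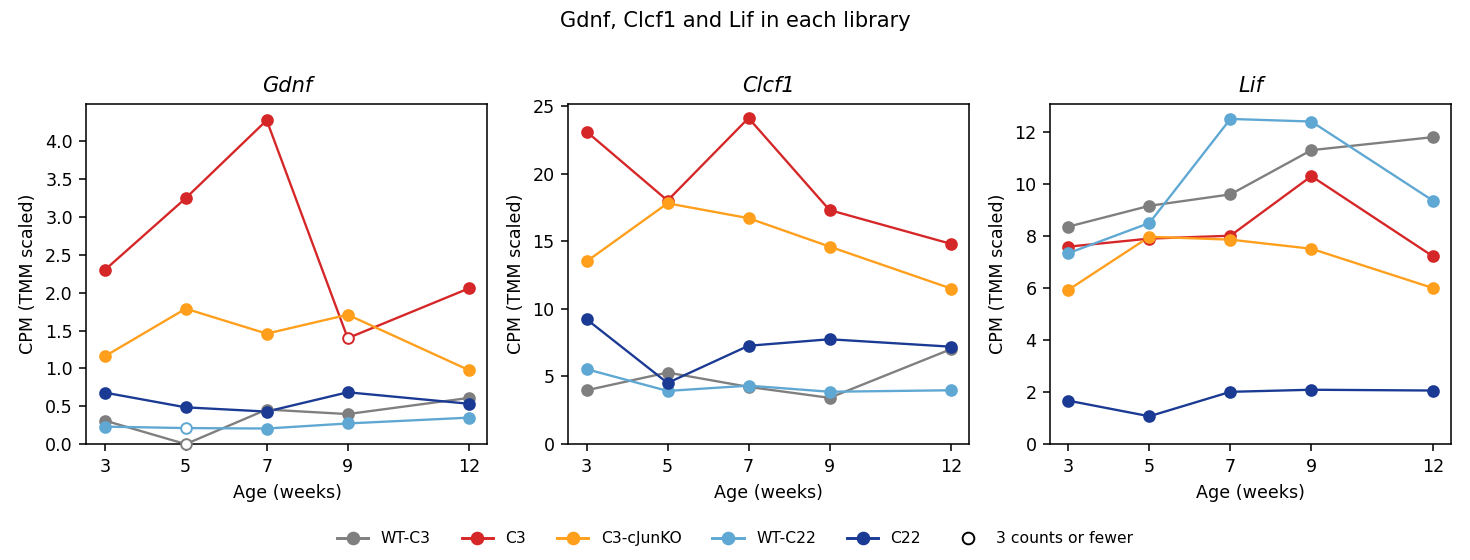
CPM of Gdnf, Clcf1 and Lif against age in weeks, with 1 point per pooled library, colours for the 5 groups and open points for 3 counts or fewer. C3 lies above WT-C3 at every age for Gdnf and Clcf1, and C22 lies below all other groups for Lif, between 1.07 and 2.09 CPM.

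Since c-Jun binds DNA as part of AP-1, the 250 bases before the annotated starts of the ligands in RefSeq (GRCm38.p6) were searched for the AP-1 motif TGANTCA, which reads the same on both strands. RefSeq gave 14 such windows for 6 of the 7 ligands, with no entry for Clcf1. The motif stood in 3 windows, 1 each of Lif, Bdnf and Cntf, and in 6.75% of all 32851 windows. The related motif TGACGTCA was found in none of the 14 windows, against 1.55% of all. The Gdnf windows at chr15:7809798-7810047 and chr15:7813477-7813726 (plus strand) and the Lif window at chr11:4257318-4257567 (plus strand) are shown because these genes had the largest changes in C3 and in C22. Capitals mark the motif, which starts 228 bases before the start of Lif and is in neither Gdnf window.
Gdnf, first start: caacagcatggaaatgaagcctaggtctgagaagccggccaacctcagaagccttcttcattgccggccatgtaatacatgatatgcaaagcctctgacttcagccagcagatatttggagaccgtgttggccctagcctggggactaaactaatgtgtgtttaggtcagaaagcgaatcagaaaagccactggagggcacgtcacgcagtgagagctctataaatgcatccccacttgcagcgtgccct
Gdnf, second start: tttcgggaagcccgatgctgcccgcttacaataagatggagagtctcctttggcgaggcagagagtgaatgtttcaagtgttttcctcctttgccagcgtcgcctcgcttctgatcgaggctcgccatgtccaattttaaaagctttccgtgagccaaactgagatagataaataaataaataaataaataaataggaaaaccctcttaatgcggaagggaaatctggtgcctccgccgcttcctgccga
Lif: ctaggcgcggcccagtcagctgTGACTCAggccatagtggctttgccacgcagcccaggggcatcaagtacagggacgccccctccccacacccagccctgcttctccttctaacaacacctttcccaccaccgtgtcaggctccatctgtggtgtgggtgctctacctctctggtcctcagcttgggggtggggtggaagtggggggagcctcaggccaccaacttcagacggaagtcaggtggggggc
A match describes these letters only, and binding was not measured.

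Artn (ENSMUSG00000028539, chromosome 4 from 117783113 to 117786993, minus strand) encodes artemin, a GDNF family ligand for sensory and sympathetic neurons. It had 0.359, 0.969, 0.924, 0 and 1.03 CPM in C3, on 12, 25, 46, 0 and 25 counts, and 0.469, 0.632, 0.343, 0.159 and 0.427 CPM in WT-C3, on 2 to 8 counts. The 5, 7 and 12 week C3 libraries were above all WT-C3 libraries, the 3 week library was not, and 0 counts in the shallow 9 week library allow up to 1.4 CPM. The log2 fold change of 0.95 ± 0.46 did not pass (adjusted p = 0.217), nor without the 9 week library (1.02, adjusted p = 0.129). Artn was between 0.37 and 0.669 CPM in C3-cJunKO, between 0.34 and 0.573 in C22 and between 0.212 and 0.726 in WT-C22. None of its comparisons passed the threshold.

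Of the 7 receptors and co-receptors of the GDNF family on the list, all were expressed above the filter. Gfra1, the co-receptor of GDNF, was higher in C3 (389 ± 16.4 against 257 ± 17.1 CPM, log2 fold change 0.59, adjusted p = 0.000282) and in C22 (248 ± 33.6 against 184 ± 22.7 CPM, 0.43, adjusted p = 0.00876). Ncam1, an adhesion molecule that can also bind GDNF, was higher in C3 (0.31, adjusted p = 0.0357) and had a log2 fold change of -0.12 in C22 (adjusted p = 0.351). Gfra3, the co-receptor of artemin, was 4.16 ± 1.15 CPM in C3 and 4.09 ± 0.685 in WT-C3 (adjusted p = 0.913).

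In C22, Gfra3 was higher, at 5.26 ± 0.46 against 2.11 ± 0.549 CPM (1.28 ± 0.17, adjusted p = 0.000142), and its change differed between the models (1.31 ± 0.27, adjusted p = 0.00283). In C3-cJunKO, Gfra3 was higher than in C3 as well, at 11.9 ± 4.03 CPM (1.60 ± 0.27, adjusted p = 0.0215). Ret, the signalling kinase, was lower in C22 (8.02 ± 1.15 against 18.2 ± 7.34 CPM, -1.17 ± 0.24, adjusted p = 0.00241) and had a log2 fold change of -0.06 ± 0.32 in C3 (adjusted p = 0.923). In total 2 of 7 were higher in C3 and 2 higher and 1 lower in C22, with median log2 fold changes of 0.17 and -0.03 against 0 for all genes. These counts lie near the shares of all genes called in either direction (23.9% in C3 and 42.4% in C22). The comparison of C3-cJunKO with C3 and that of C3 with WT-C3 share the C3 libraries.

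Bdnf (ENSMUSG00000048482, chromosome 2 from 109505045 to 109557475, plus strand) encodes brain-derived neurotrophic factor, a ligand of TrkB. It was at the limit of detection, with 0 to 10 counts in any library and 3 or fewer in 10 of the 25. Summed over the 5 libraries of a group, it had 0.158 CPM in WT-C3 (95% exact Poisson interval 0.0759 to 0.291), 0.199 in C3 (0.131 to 0.29), 0.137 in C3-cJunKO (0.0812 to 0.216), 0.216 in WT-C22 (0.142 to 0.314) and 0.227 in C22 (0.153 to 0.325). The intervals cover counting error only, and they overlap for all groups. The log2 fold changes were 0.32 ± 0.64 in C3, 0.10 ± 0.36 in C22 and -0.48 ± 0.60 in C3-cJunKO compared to C3, with adjusted p of 0.812, 0.935 and 0.949. A difference in Bdnf was not detectable at this depth.

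Ntf3 (ENSMUSG00000049107, chromosome 6 from 126078375 to 126143873, minus strand) encodes neurotrophin-3, a ligand of TrkC that supports proprioceptive neurons. The WT-C22 libraries had 1.31, 1.17, 1.36, 1.48 and 2.1 CPM, on 11 to 84 counts. The C22 libraries had 0.987, 0.777, 0.716, 1.23 and 0.876 CPM, on 16 to 34 counts. C22 was lower than WT-C22 at 5 of 5 ages, and 1 C22 library, that of 9 weeks, was above the lowest WT-C22 library. The log2 fold change was -0.72 ± 0.24 (adjusted p = 0.042; exact permutation p = 0.0159). This call is weak, since it was lost when library size alone was used for scaling (-0.55, adjusted p = 0.101), and without the C22 library of 3 weeks (0.06), 5 weeks (0.0807), 7 weeks (0.0962) or 12 weeks (0.0741) or the WT-C22 library of 7 weeks (0.0613), 9 weeks (0.0778) or 12 weeks (0.126).

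In C3, Ntf3 was 0.418, 0.93, 0.924, 1.87 and 1.65 CPM from 3 to 12 weeks, on 14, 24, 46, 4 and 40 counts, and in WT-C3 it was 1.17, 1.42, 1.26, 0.874 and 1.16 CPM. C3 was below WT-C3 at 3, 5 and 7 weeks and above it at 9 and 12 weeks, and the groups overlapped (log2 fold change -0.16 ± 0.36, adjusted p = 0.845). A natural spline of age with 3 degrees of freedom in 1 fit of the 25 libraries did not pass for Ntf3 in C3 (unadjusted p = 0.0126, adjusted p = 0.144). A linear slope did, at 0.191 ± 0.043 log2 units per week (adjusted p = 0.0137), where 5.96% of genes passed. The slope did not pass without the C3 library of 3 weeks or of 12 weeks. In C3-cJunKO Ntf3 lay between 0.794 and 1.19 CPM, the lowest at 3 and the highest at 12 weeks (slope 0.063 ± 0.043, adjusted p = 0.469).

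**Figure D4:**
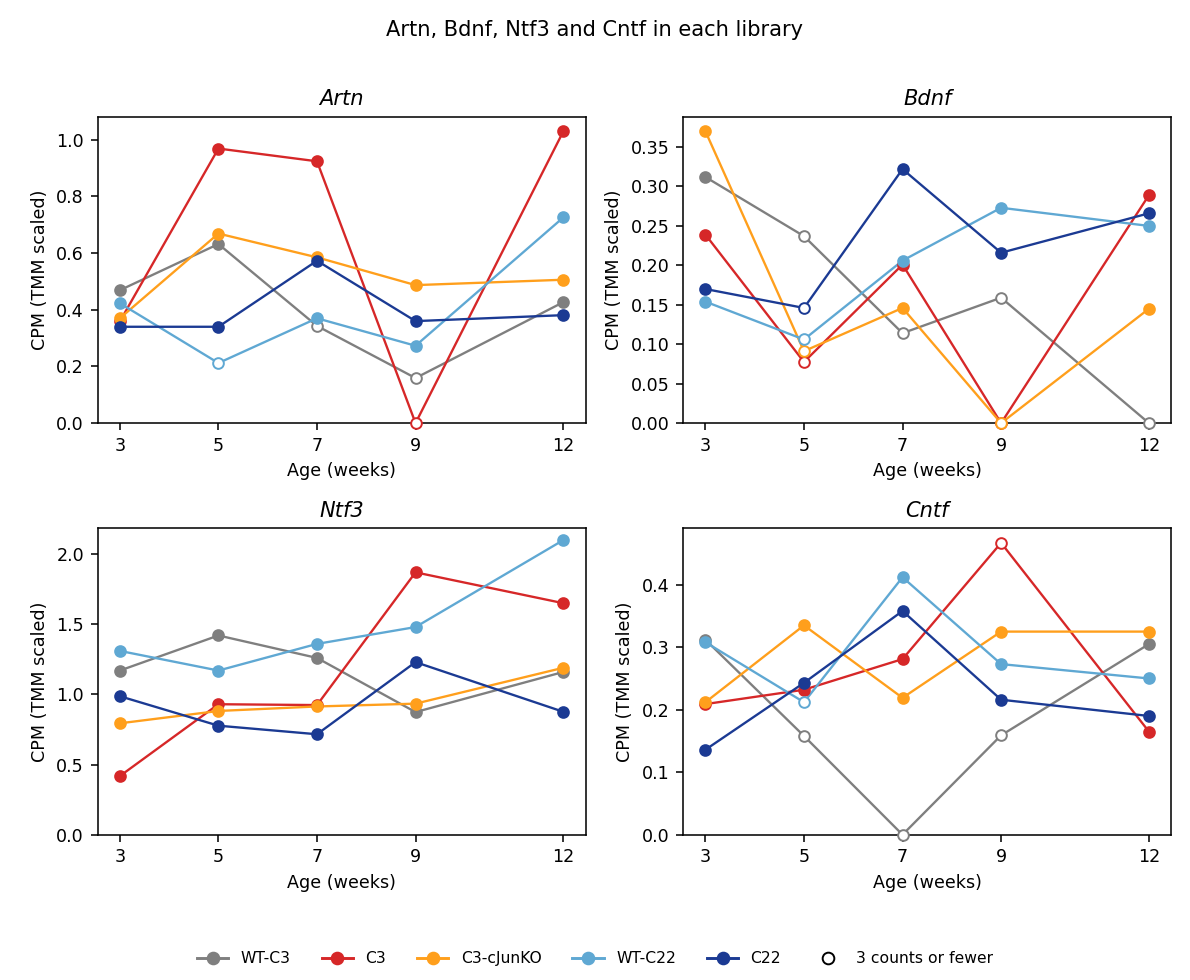
CPM of Artn, Bdnf, Ntf3 and Cntf against age in weeks, with 1 point per pooled library, colours for the 5 groups and open points for 3 counts or fewer. Ntf3 is the one with more than 3 counts in every library, and in C3 it goes from 0.418 CPM at 3 weeks to 1.65 CPM at 12 weeks.

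Of the 5 neurotrophin receptors on the list, Ngfr, which encodes p75 and also stands on the list of repair Schwann cell markers, changed most. It was higher in C3 (200 ± 28 against 58.1 ± 10.4 CPM, 1.78 ± 0.13, adjusted p = 2.3e-05) and in C22 (108 ± 19.7 against 49.3 ± 10.9 CPM, 1.12 ± 0.16, adjusted p = 0.000208), and lower in C3-cJunKO than in C3 (94.5 ± 4.99 CPM, -1.08 ± 0.10, adjusted p = 0.000288). Ntrk2, which encodes TrkB, was lower in C22 (107 ± 7.09 against 132 ± 22.5 CPM, -0.31, adjusted p = 0.0379) and 126 ± 9.91 against 123 ± 11.7 CPM in C3 (adjusted p = 0.808). Ntrk3, which encodes TrkC, was lower in C22 (60.2 ± 2.8 against 99.4 ± 17.1 CPM, -0.73, adjusted p = 0.000189) and 75.9 ± 21.9 against 69.6 ± 9.7 CPM in C3 (adjusted p = 0.579). The Ntrk3 change differed between the models (-0.89 ± 0.21, adjusted p = 0.00878), that of Ntrk2 did not pass (-0.37 ± 0.14, adjusted p = 0.101). With Sort1, 3 of 4 tested receptors were lower and 1 higher in C22, and 1 was higher in C3, where 42.4% and 23.9% of all genes were called.

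Lif (ENSMUSG00000034394, chromosome 11 from 4207557 to 4222514, plus strand) encodes leukemia inhibitory factor, a cytokine that Schwann cells release after injury. The WT-C22 libraries had 7.34, 8.5, 12.5, 12.4 and 9.36 CPM, on 80 to 374 counts. The C22 libraries had 1.67, 1.07, 2.01, 2.09 and 2.06 CPM, on 22 to 58 counts. All C22 libraries were below all libraries of the other groups, the lowest of which was 5.93 CPM. The log2 fold change in C22 was -2.49 ± 0.21, a 5.63-fold reduction (adjusted p = 4.66e-06; exact permutation p = 0.00794), and leaving out each library in turn gave -2.58 to -2.37.

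In C3, Lif was lower by a much smaller amount that did not pass. The WT-C3 libraries had 8.36, 9.16, 9.6, 11.3 and 11.8 CPM and the C3 libraries 7.59, 7.9, 8.01, 10.3 and 7.22 CPM. C3 was below WT-C3 at 5 of 5 ages, and the 9 week library, on 22 counts, overlapped the control range. The log2 fold change was -0.34 ± 0.13 (adjusted p = 0.0857), with -0.39 (adjusted p = 0.0407) without the 9 week C3 library and -0.37 (adjusted p = 0.0485) with DESeq2. The change in C22 differed from that in C3 by -2.17 ± 0.25 (adjusted p = 6.53e-06). That difference was called for 2 of 7 ligands, Lif and Clcf1, against 12.1% of the genes in the filtered fit, which held these 2, and 5.56% in the second fit.

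In C3-cJunKO, Lif was 5.93, 7.97, 7.86, 7.51 and 6 CPM. The values overlapped those of C3 (-0.17 ± 0.13, adjusted p = 0.853) and were below all WT-C3 libraries (-0.51 ± 0.14, adjusted p = 0.019). The latter call was lost with library size alone (-0.43, adjusted p = 0.0705) and without the WT-C3 library of 12 weeks (-0.44, adjusted p = 0.0504). Of the 7 ligands, 3 were called in C3-cJunKO compared to WT-C3, Gdnf, Clcf1 and Lif, against 21.5% and 12.5% of genes, and the same 3 did not overlap between the groups, against 16.3% and 10.8%. The 2 control groups had nearly equal Lif, at 10.0 ± 2.33 CPM in WT-C22 and 10.1 ± 1.47 in WT-C3 (adjusted p = 0.996). Between the controls, edgeR called 0 of 7 ligands at an adjusted p under 0.05, where it called 21.7% and 14.7% of genes. None of the 7 had an unadjusted p under 0.05 in edgeR, and DESeq2 called 0.

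The genes whose log2 CPM followed Lif most closely over the 25 libraries were Arhgef37 (Pearson r = 0.97), Mast2 (0.97) and Limch1 (0.96). Arhgef37 averaged 39.5 CPM in WT-C3, 30.3 in C3, 30.5 in C3-cJunKO, 45.2 in WT-C22 and 4.91 in C22. With group means removed, r was 0.59, 0.56 and 0.29, so much of the likeness was the difference between groups, and the libraries share their depth and pool. Markers of other cells moved in C22 too. Of 9 endothelial cell and pericyte markers 7 were lower in C22 than in WT-C22, with summed levels of 565 to 814 against 879 to 1080 CPM. All 3 perineurial markers were lower (275 to 354 against 437 to 648 CPM), and 5 of 10 markers of myelinating Schwann cells were lower and 1 higher (24100 to 36300 against 47400 to 97000 CPM). Of all genes 42.4% were called in C22 in either direction, not far from the share of the myelinating markers. No marker of these lists was at 0 in all libraries of a group, and their part in the Lif result was not tested.

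Clcf1 (ENSMUSG00000040663, chromosome 19 from 4264292 to 4273546, plus strand) encodes cardiotrophin-like cytokine factor 1, a second ligand of the CNTF receptor. The WT-C3 libraries had 3.98, 5.29, 4.23, 3.42 and 7.02 CPM, on 37 to 115 counts. The C3 libraries had 23.1, 18, 24.1, 17.3 and 14.8 CPM, on 37 to 1199 counts. No values overlapped between the groups, and the closest were those of 12 weeks, where C3 was at its lowest and WT-C3 at its highest. C3 exceeded WT-C3 4.06-fold, a log2 fold change of 2.02 ± 0.21 (adjusted p = 9.92e-05; exact permutation p = 0.00794), and leaving out each library in turn gave 1.92 to 2.21. In C3 all 3 perineurial markers were lower as well (summed levels of 362 to 441 against 504 to 731 CPM). Of 9 endothelial cell and pericyte markers 2 were lower, near the 23.9% of all genes called in C3. Their summed levels overlapped (626 to 879 against 844 to 964 CPM). The part of these markers in the C3 results was not tested.

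The C22 libraries had 9.23, 4.52, 7.27, 7.75 and 7.2 CPM and the WT-C22 libraries 5.54, 3.93, 4.32, 3.87 and 3.98 CPM. C22 was higher at 5 of 5 ages, and its 5 week library lay below the 3 week library of WT-C22. C22 exceeded WT-C22 1.65-fold, a log2 fold change of 0.73 ± 0.18 (adjusted p = 0.0073; exact permutation p = 0.0159), and the change minus that in C3 was -1.31 ± 0.29 on the log2 scale (adjusted p = 0.00421). Gdnf and Clcf1 had their highest levels in the model with 5 added copies, and the lowest Lif stood in the model with 10. The Gdnf difference in change between the models did not pass, as given above. The models also differ in strain, and human PMP22 averaged 12600 CPM in C3 and 11800 CPM in C22.

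In C3-cJunKO, Clcf1 had 13.5, 17.8, 16.7, 14.6 and 11.5 CPM, on 256 to 586 counts. These were above all WT-C3 libraries (1.62 ± 0.19, 3.06-fold, adjusted p = 0.000107) and below the C3 library of the same age at 5 of 5 ages, by little at 5 weeks. Compared to C3 the log2 fold change was -0.40 ± 0.16 (unadjusted p = 0.0269, adjusted p = 0.533; exact permutation p = 0.0556). At an adjusted p under 0.05, edgeR called 0 of 7 ligands between C3-cJunKO and C3, where it called 0.55% and 0.456% of genes. DESeq2 called 0 ligands too, and 2 ligands, Gdnf and Clcf1, had an unadjusted p under 0.05 in edgeR. With age as a block 1 ligand passed, Gdnf, as given above, against 1.95% and 2.04% of genes, and Clcf1 did not.

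Over the 25 libraries, genes whose log2 CPM followed Clcf1 closely were 5830417I10Rik (Pearson r = 0.92, and 0.46 with group means removed) and Traf3 (0.9 and 0.23). 5830417I10Rik averaged 23.2 CPM in WT-C3, 37.4 in C3, 34.9 in C3-cJunKO, 19.8 in WT-C22 and 26.9 in C22. Among the 7 ligands, Gdnf and Clcf1 were the most alike (r = 0.91 over the 25 libraries, which share their groups).

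Of the related ligands, Ctf1, which encodes cardiotrophin-1, was lower in C22, at 2.28 ± 0.642 against 3.37 ± 0.425 CPM (-0.56 ± 0.19, adjusted p = 0.0304), and 2.27 ± 0.924 against 3.57 ± 0.648 in C3 (adjusted p = 0.134). In the second fit, Ntf5 (-1.63, adjusted p = 0.0336) passed in C22 on 2 to 6 counts per library, against 2 to 18 in WT-C22. Il27 (1.72, adjusted p = 0.0271) passed in C22 on 2 to 5 counts, against 0 to 2 in WT-C22. Every WT-C22 library was thus below the limit of detection for Il27.

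Cntf (ENSMUSG00000079415, chromosome 19 from 12737353 to 12742996, minus strand) encodes ciliary neurotrophic factor, known from myelinating Schwann cells. It had 0 to 14 counts and at most 0.467 CPM in any library. That highest value rests on 1 count in the C3 library of 9 weeks, below the limit of detection. The other libraries had at most 0.412 CPM (WT-C22 at 7 weeks, 10 counts). Summed over a group it had 0.206 CPM in WT-C3 (95% exact Poisson interval 0.11 to 0.352), 0.236 in C3 (0.162 to 0.333), 0.289 in C3-cJunKO (0.205 to 0.397), 0.295 in WT-C22 (0.208 to 0.407) and 0.227 in C22 (0.153 to 0.325), with overlapping intervals. No comparison passed, with log2 fold changes of 0.26 ± 0.52 in C3, -0.37 ± 0.35 in C22 and 0.29 ± 0.33 in C3-cJunKO compared to C3. The level itself is uncertain, because in GENCODE M39 all 594 coding bases of Cntf, and 17.9% of its exon bases, also belong to Gm44505, a longer protein-coding gene on the same strand. A fragment that lies only on such bases is ambiguous and counts for neither gene, and Gm44505 had 0 counts in every library. Likewise Clcf1 shares 8.17% of its exon bases and 20.6% of its coding bases with Gm45928, which had 0 counts in every library. Whether the other exon bases of Gm44505 and Gm45928 lie in further genes was not examined, so their 0 counts do not give their levels. On the opposite strand, Bdnf shares 13.5% of its exon bases with Gm45346, which had 0 counts in every library, and Ntf3 shares 12.3% with Gm67883, which was not analysed here. If the counting did not use strand, reads of such a pair cannot be told apart.

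Of the 11 genes on the list of IL-6 family receptors and their signal, 1 was higher and 2 lower in C3, and 2 were higher and 7 lower in C22, with median log2 fold changes of 0.11 and -0.40. Of all genes 23.9% were called in C3, near the count for this list, and 42.4% in C22. Lifr, which encodes the receptor subunit shared by LIF, CNTF and CLCF1, was lower in C3 (93 ± 6.08 against 129 ± 5.83 CPM, -0.47 ± 0.07, adjusted p = 0.000895) and in C22 (84.3 ± 13.1 against 141 ± 16.4 CPM, -0.75 ± 0.12, adjusted p = 0.000376). Cntfr, the subunit for CNTF and CLCF1, was lower in C22 (-0.50 ± 0.14, adjusted p = 0.0149) and had a log2 fold change of -0.09 ± 0.13 in C3 (adjusted p = 0.64). Il6st, which encodes gp130, did not pass in either model (0 ± 0.09 in C3 and -0.22 ± 0.11 in C22).

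Downstream, Socs3, a feedback inhibitor that STAT3 induces, was lower in C22 (15.5 ± 2.71 against 24.8 ± 2.86 CPM, -0.69 ± 0.12, adjusted p = 0.000891), and was 29.6 ± 3.38 against 22.8 ± 4.35 CPM in C3 (0.35 ± 0.13, adjusted p = 0.0692). Stat3 was lower in C22 (-0.40 ± 0.08, adjusted p = 0.00174) and had a log2 fold change of 0.18 ± 0.08 in C3 (adjusted p = 0.107). Both changes differed between the models, by -1.06 ± 0.19 for Socs3 (adjusted p = 0.000775) and -0.60 ± 0.11 for Stat3 (adjusted p = 0.000906). No gene of this list passed between C3-cJunKO and C3.

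**Figure D5:**
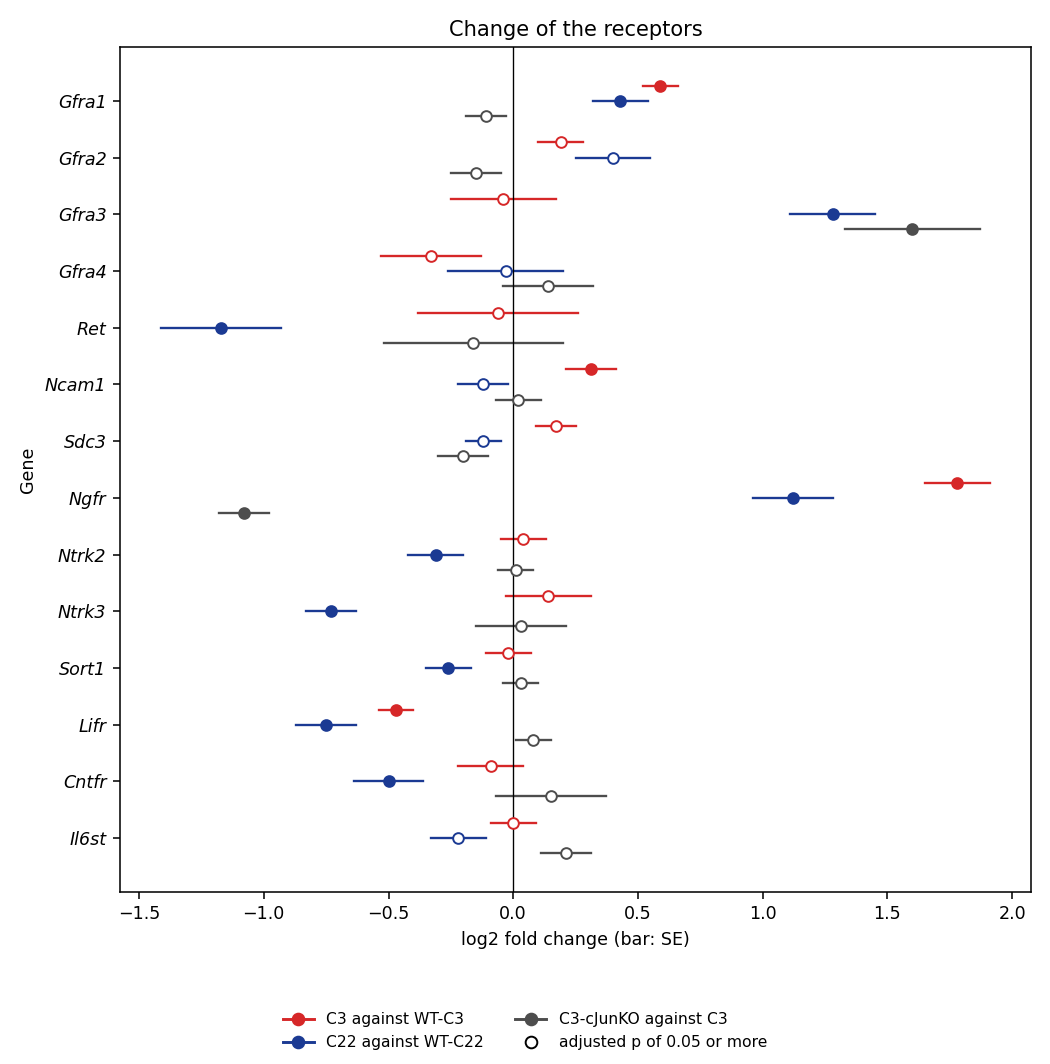
Log2 fold change with SE of receptors of the ligands in 3 comparisons of 5 against 5 libraries, where filled points have an adjusted p under 0.05. Ngfr lies furthest to the right in C3 (1.78), Ret and Lifr furthest to the left in C22 (-1.17 and -0.75), and Gfra3 and Ngfr are the filled points of C3-cJunKO against C3 (1.60 and -1.08).

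Within a group, no change with age passed the test for any of the 7 ligands when age was fitted as a spline. In edgeR 0 of 7 passed in each group, against 0.693% of genes in WT-C3, 2.27% in C3, 3.38% in C3-cJunKO, 2.86% in WT-C22 and 0.752% in C22 after filterByExpr. In the second fit, which held Gdnf, Artn, Bdnf and Cntf, the shares were 2.13%, 5.55%, 5.17%, 5.75% and 3.56% in the same order. DESeq2's likelihood ratio test called 0 of the ligands to which it gave an adjusted p. At an unadjusted p under 0.05 were Clcf1 in WT-C3 (0.0495), Ntf3 in C3 (0.0126) and Lif in WT-C22 (0.028). Lif went from 7.34 CPM at 3 weeks to 12.5 at 7 weeks and back to 9.36 at 12 weeks in WT-C22, while in C22 it stayed within 1.07 and 2.09 CPM. With 1 pool per age, the fit had 5 residual degrees of freedom for 25 libraries, which limits what it can call.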

How the data were processed

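Poly(A) RNA of pooled sciatic nerves was sequenced as paired-end reads from a directional kit. The authors trimmed with cutadapt 2.10, aligned with STAR 2.7.5a to GRCm39 with the human transgene locus added, removed duplicates with UMI-tools 1.1.1 and deposited raw counts per gene from HTSeq 0.12.4 (Ensembl release 110). The strand setting of the counting is not given in the sources used here. Of the deposited counts, 8.12% to 12.1% per library fell on no gene and 1.78% to 2.04% were ambiguous, and both were left out, since a fragment on 2 genes counts for neither. Library totals and the precision they give are stated with the results.

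Symbols, positions and exon lengths are those of GENCODE M39 (GRCm39), a newer annotation than that of the counts, and 56323 of 56941 mouse genes matched. CPM were scaled by TMM factors over the 25 libraries. Genes with a log2 CPM above 1 in 25% of libraries (13993 genes) were tested in R 4.3.3 with edgeR 4.0.16, by quasi-likelihood tests with group as the only term, TMM factors and Benjamini-Hochberg adjustment at 0.05. Ligands that failed this filter were tested over the 26289 genes with at least 10 counts. Age was fitted with filterByExpr (15298 genes), and ligands that failed it over the 26289 genes. Libraries of an age were treated as pairs only where their deviations from the group means correlated above 0.1 at each age, which held for C3-cJunKO against C3 (0.441, 0.15, 0.31, 0.301 and 0.611 from 3 to 12 weeks). At 5 and 7 weeks, the C3-cJunKO library correlated more with a C3 library of another age. Single values were compared by exact two-sided permutation tests. Nothing names separate pools of 1 group and age. With group as the only term, p-values therefore rest on a spread that mixes age effects with the variation between pools. In fits with an age term, they rest on the spread that this term leaves. The scripts were tested on simulated data. Intervals and limits cover counting error only.

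The genes named are the 7 ligands, Jun and human PMP22, receptors of the ligands, list genes that passed, and for Lif and Clcf1 the 3 genes most alike. Some genes that this rule names are not reported here. The ligands and lists, written from general knowledge, were chosen with earlier results of these data known. Results were recomputed with age as a block, with DESeq2 1.42.0, with scaling by median ratios or by library size only, with other filters and age terms, with the 25 libraries fitted together, and without each library in turn. The age block without each library was added after seeing the data.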

Additional observations from a re-analysis of the deposited data

Results flagged for a closer look

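Within groups of 5 libraries, 3 of the 35 combinations of ligand and group held a library that stood apart by Dixon's criterion at 95%, where chance flags about 1 in 20. Artn was 0.573 CPM (16 counts) in the C22 library of 7 weeks, with 0.34 to 0.381 CPM in the others. Lif was 10.3 CPM (22 counts) in the C3 library of 9 weeks, the shallowest of all, with 7.22 to 8.01 CPM in the others. Clcf1 was 5.54 CPM (144 counts) in the WT-C22 library of 3 weeks, with 3.87 to 4.32 CPM in the others.

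The change in C22 differed from the change in C3, by the test of the difference itself, for Lif by -2.17 and for Clcf1 by -1.31 on the log2 scale. Lif was lower at 5 of 5 ages in both models and Clcf1 higher at 5 of 5 ages in both. The models differ in strain as well as in copy number, and these cannot be told apart.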

How the results depend on the processing

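The C3-cJunKO library of any age and the C3 library of that age could be treated as pairs, and with age as a replicate block the ligands called between these groups went from 0 to 1 (Gdnf, -1.0, adjusted p = 0.0343), and to between 0 and 1 when each library was also left out. In the other comparisons the ages did not pair the libraries by the same check, and there the block lost 1 call, Ntf3 in C22 (-0.69, adjusted p = 0.0506). With a linear slope in place of the spline, the ligands that changed with age in C3 went from 0 to 1 (Ntf3), and to between 0 and 1 without each library. Other counts of ligands stayed within 1.5 times the reported count. Among single ligands, 8 values without 1 library and 3 under other settings lost their call, 4 and 5 gained one, and 17 and 5 changed sign, none of the latter called. Artn in C22 was 0.06 with library size only. Lif in WT-C22 against WT-C3 was 0 with median-ratio factors, 0 with DESeq2, 0 with filterByExpr and 0.03 over genes with at least 10 counts. Leaving out 1 library gave -0.45 to 0.07 for Ntf3, -0.07 to 0.71 for Bdnf in C3, -0.07 to 0.21 for Bdnf and -0.28 to 0.26 for Artn in C22, -0.6 to 0.15 for the Bdnf difference between models, -0.34 to 0.2 for Ntf3 in C3-cJunKO against C3, -0.65 to 0.24 for Bdnf in C3-cJunKO against WT-C3, and -0.26 to 0.32 for Artn, -0.09 to 0.1 for Lif and -0.26 to 0.04 for Clcf1 between the controls. Library size only moved the median of all genes by 0.17 in C22 and 0.08 in C3, with 75.8% and 71.4% of the called genes higher in place of 51.7% and 52.1%. Over all genes, C3-cJunKO against C3 gave 77 calls, 273 with the block and 250 with DESeq2. Low counts limit the precision for Bdnf, Cntf and Artn, and for all low ligands in the C3 library of 9 weeks. The causes of these shifts were not tested.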
